A study of Mus musculus with 3 samples.

Results

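The interferon response genes followed here are 31 mouse genes, chosen by name and not by any measured value, of 32287 features in each count matrix. They fall into 22 type I type genes, listed together as targets of interferon alpha, beta and lambda though some, such as Irf1, also respond to interferon gamma, and 9 interferon gamma type genes (Ifi47, Igtp, Irgm1, Gbp2, Gbp3, Gbp7, Psmb8, Psmb9 and Tap1). They were measured in 3 single-cell RNA libraries of lung cells, taken 4 weeks after bleomycin, a drug that injures the alveolar epithelium. All 3 libraries came from mice of the genotype Scgb1a1-CreER;Sftpc-DreER;R26-TLR, in which Scgb1a1, a club cell gene, drives CreER, Sftpc, a surfactant gene of alveolar type 2 (AT2) cells, drives DreER, and the R26-TLR allele reports both. Flow sorting gave the Club-Tracer library (tdTomato positive), the AT2-Tracer library (ZsGreen positive) and the BASC-Tracer library (positive for both, the pattern of bronchioalveolar stem cells). Age, sex and the number of animals are not given in the sources used here, and every group carried the injury, so no uninjured level was measured. There was 1 library per lineage. No test between lineages was therefore possible, and every difference below is a size between libraries or between cell classes of a library, with no replicate check.

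Type I and type III interferons are secreted when cells sense foreign or misplaced nucleic acid, and interferon gamma is released mainly by activated T cells and NK cells. Type I interferons bind IFNAR1 and IFNAR2, type III interferons bind IFNLR1 and IL10RB, and both act through a complex that includes STAT2 and IRF9 on the interferon-stimulated response element (ISRE). Interferon gamma binds IFNGR1 and IFNGR2 and acts on the gamma-activated site (GAS). In lung epithelium the targets are known for holding back respiratory viruses, and several of them are also expressed at a steady level without infection.

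The start regions of members were read from RefSeq promoter entries (GRCm38.p6, 250 bases before to 50 after the start site) and searched on both strands for the ISRE core (GAAA, any 2 bases, GAAA) and the GAS core TTCNNNGAA. An entry was present for 26 members. ISRE letters were found in 8 of 17 type I type and 5 of 9 interferon gamma type members, and in 3.44% of all 32851 promoter entries. GAS letters were found in 6 of 17 and 3 of 9 members, and in 8.30% of all entries. A match is a description of letters and not a site of binding. The 160 bases before the start are shown for the genes that the results turn on, read in the direction of the gene, with ISRE and GAS letters in capitals.
Ifit1, chr19:34640729-34640888, forward strand: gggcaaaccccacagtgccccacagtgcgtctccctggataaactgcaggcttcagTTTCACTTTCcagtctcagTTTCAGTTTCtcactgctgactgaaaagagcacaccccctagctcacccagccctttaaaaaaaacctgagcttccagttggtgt
Ifit3, chr19:34583369-34583528, forward strand: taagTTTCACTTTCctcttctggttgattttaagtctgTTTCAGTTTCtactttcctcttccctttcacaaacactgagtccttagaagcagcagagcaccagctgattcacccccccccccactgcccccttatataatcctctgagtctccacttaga
Isg15, chr4:156200819-156200978, reverse strand: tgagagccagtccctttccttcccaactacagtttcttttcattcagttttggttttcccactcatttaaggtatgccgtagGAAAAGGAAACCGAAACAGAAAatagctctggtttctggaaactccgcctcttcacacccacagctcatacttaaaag
Ifitm3, chr7:141010745-141010904, reverse strand: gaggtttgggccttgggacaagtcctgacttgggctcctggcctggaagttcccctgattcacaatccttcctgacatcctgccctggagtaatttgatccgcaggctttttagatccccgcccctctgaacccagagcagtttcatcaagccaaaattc
Gbp7, chr3:142530176-142530335, forward strand: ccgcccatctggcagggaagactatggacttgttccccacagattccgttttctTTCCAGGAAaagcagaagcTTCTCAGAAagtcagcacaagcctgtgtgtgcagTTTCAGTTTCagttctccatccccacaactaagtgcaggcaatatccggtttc
Psmb8, chr17:34198035-34198194, forward strand: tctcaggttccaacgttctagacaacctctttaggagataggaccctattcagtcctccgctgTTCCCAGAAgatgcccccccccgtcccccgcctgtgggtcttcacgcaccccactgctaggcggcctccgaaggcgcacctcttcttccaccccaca
Ifit1 and Ifit3 each hold 2 ISRE cores on the reverse strand, Isg15 holds 3 that overlap, Gbp7 holds an ISRE core and 2 GAS cores, and Psmb8 holds a GAS core. The stretch shown for Ifitm3 has neither. In Ifitm3, 2 ISRE cores begin 3 and 20 bases past the start site, and a GAS core begins 14 bases past it.

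Barcodes with at least 500 genes and at most 15% mitochondrial UMIs (unique molecular identifiers, each a counted transcript molecule) were kept, 3196 of 5304 in the Club-Tracer library, 1402 of 2439 in the BASC-Tracer library and 5859 of 8884 in the AT2-Tracer library, with medians of 15406, 15221.5 and 9682 UMIs. Among kept barcodes, 6 to 23 sequences were shared between a pair of libraries. Cells were gated into classes on marker genes that are not members. The gates held 443, 352 and 1726 AT2 cells, 57, 77 and 825 alveolar type 1 (AT1) cells and 195, 113 and 545 transitional cells (Krt8-high intermediates) in the order Club-Tracer, then BASC-Tracer, then AT2-Tracer, which later lists of 3 values follow. They further held 873 and 170 club cells and 472 and 86 ciliated cells in the first 2 libraries, 146 basal cells in the Club-Tracer library, and 107 and 1766 macrophages in the BASC-Tracer and AT2-Tracer libraries. A class is a range of a score and not a discrete type. Within 1.5 times of its own cut lay 19, 29 and 211 of the AT1 cells and 88, 53 and 184 of the transitional cells. The 11 AT2 markers summed to 134835 to 147817 CPM (UMIs of the genes over all UMIs of the class, scaled to 1e6) in AT2 cells and the 13 AT1 markers to 23651 to 25283 CPM in AT1 cells. No gate took in 752, 327 and 873 kept barcodes. The labels call the sorted cells epithelial, yet macrophages made up 30.1% of kept AT2-Tracer barcodes.

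The type I type genes summed to 822, 565 and 567 CPM of the 3 whole libraries and the interferon gamma type genes to 131, 149 and 216 CPM. AT2 cells had the lowest type I type sum of the classes with at least 50 cells in each library, at 351, 312 and 308 CPM. Ciliated cells had the highest, at 2513 CPM (95% counting interval 2474 to 2553) in the Club-Tracer and 1863 CPM (1795 to 1933) in the BASC-Tracer library. In the AT2-Tracer library macrophages led at 904 CPM (889 to 919), followed by AT1 cells at 675 CPM. A few abundant genes weigh most in these sums. Ifitm3 alone gave 108, 43.3 and 20.2 CPM of the AT2 sums and 858 and 605 CPM of the ciliated sums. Ifitm1 gave a further 396 and 229 CPM in ciliated cells. An order of sums, also of whole libraries, is therefore not an order of most members. Interferon gamma type sums spread less over epithelial classes, from 85.9 CPM in BASC-Tracer club cells to 225 CPM in AT2-Tracer AT1 cells, and stood at 335 CPM in BASC-Tracer macrophages. All intervals cover counting error only. In such sums, fewer cells with a transcript and less RNA per cell cannot be told apart, and shares of cells are given where that matters.

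**Figure D1:**
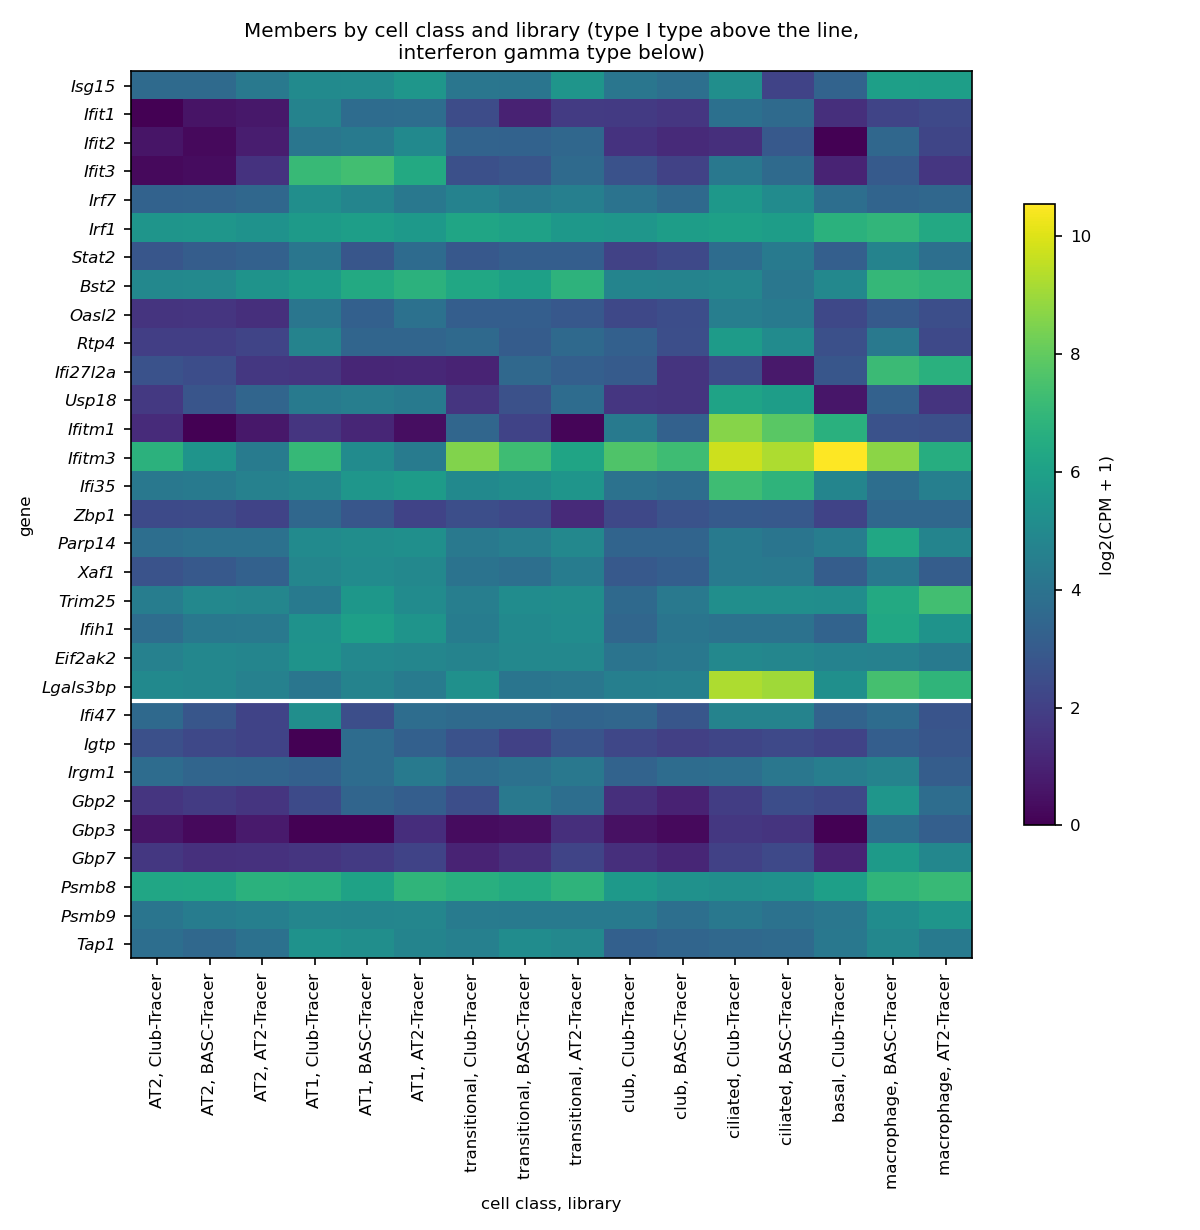
Level of each of the 31 members, as log2(CPM + 1), in each cell class and library with at least 50 cells. Ifit3 is bright in the AT1 columns of all 3 libraries, Ifitm1, Ifitm3 and Lgals3bp in the ciliated columns, and Eif2ak2 stays between 15.4 and 42.1 CPM in every column.

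The IFIT genes encode proteins that bind foreign RNA and block its translation, and they lie side by side on chromosome 19. Ifit3 was the member with the highest contrast between AT1 and AT2 cells. In AT1 cells, the flat cells of gas exchange, Ifit3 stood at 135 CPM (95% interval 104 to 172) in the Club-Tracer library, 161 CPM (135 to 191) in the BASC-Tracer library and 84.2 CPM (77.2 to 91.7) in the AT2-Tracer library. In AT2 cells of the same libraries it stood at 0.197, 0.293 and 1.89 CPM, from 2, 3 and 56 UMIs. No interval in AT1 cells overlapped one in AT2 cells. The ratio of AT1 to AT2 cells was 682 (181 to 5757) in the Club-Tracer, 550 (184 to 2699) in the BASC-Tracer and 44.6 (33.8 to 59.8) in the AT2-Tracer library. Its near-identical neighbour Ifit3b, no member, was counted apart and stood at 10.5, 26.6 and 20.9 CPM in AT1 cells and at 0.0986, 0.0976 and 0.169 CPM in AT2 cells. How reads that fit both copies were counted was not examined, and both genes differ in the same direction.

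The Ifit3 level in AT1 cells was spread over many cells. After each cell was thinned to 3000 UMIs, an Ifit3 UMI was found in 25.0% (exact binomial interval 12.7 to 41.2) of 40 AT1 cells in the Club-Tracer library, 26.2% (15.8 to 39.1) of 61 in the BASC-Tracer library and 22.0% (18.7 to 25.6) of 582 in the AT2-Tracer library. In AT2 cells at the same depth the shares were 0 of 418 cells, which allows up to 0.718%, then 0.299% of 334 cells and 0.931% of 1611 cells. Thinning left out 17, 16 and 243 shallower AT1 cells. Without it the shares were 28.1%, 36.4% and 31.6% in AT1 and 0.451%, 0.568% and 1.80% in AT2 cells, with AT1 cells the shallower class (medians of 5535, 7521 and 5758 UMIs against 23116, 27995 and 16505). The single AT1 cell with most Ifit3 UMIs gave 15 of 64, 20 of 133 and 15 of 527. No other class reached this level. Transitional cells stood at 5.00, 5.78 and 11.6 CPM, club cells at 5.30 and 3.17 CPM, ciliated cells at 17.7 and 11.3 CPM, basal cells at 1.10 CPM and macrophages at 6.96 and 2.17 CPM.

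Ifit1 and Ifit2 showed the same order between AT1 and AT2 cells at lower levels. Ifit2 stood at 16.8, 19.4 and 30.8 CPM in AT1 cells and at 0.493, 0.195 and 0.775 CPM in AT2 cells, with transitional cells between them at 9.21, 8.84 and 10.4 CPM. Ifit1 stood at 25.2, 12.1 and 12.6 CPM in AT1 cells, from 12, 10 and 79 UMIs. A single AT1 cell held 8, 7 and 21 of these UMIs. The Ifit1 levels in Club-Tracer and BASC-Tracer AT1 cells therefore rest mostly on 1 cell each. In AT2 cells Ifit1 had 0, 5 and 18 UMIs. In the AT2-Tracer library the ratios of AT1 to AT2 cells were 39.8 (25.7 to 64.2) for Ifit2 and 20.8 (12.3 to 36.9) for Ifit1. In the other 2 libraries both genes had fewer than 30 UMIs in AT1 cells and stayed under the minimum for a call.

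**Figure D2:**
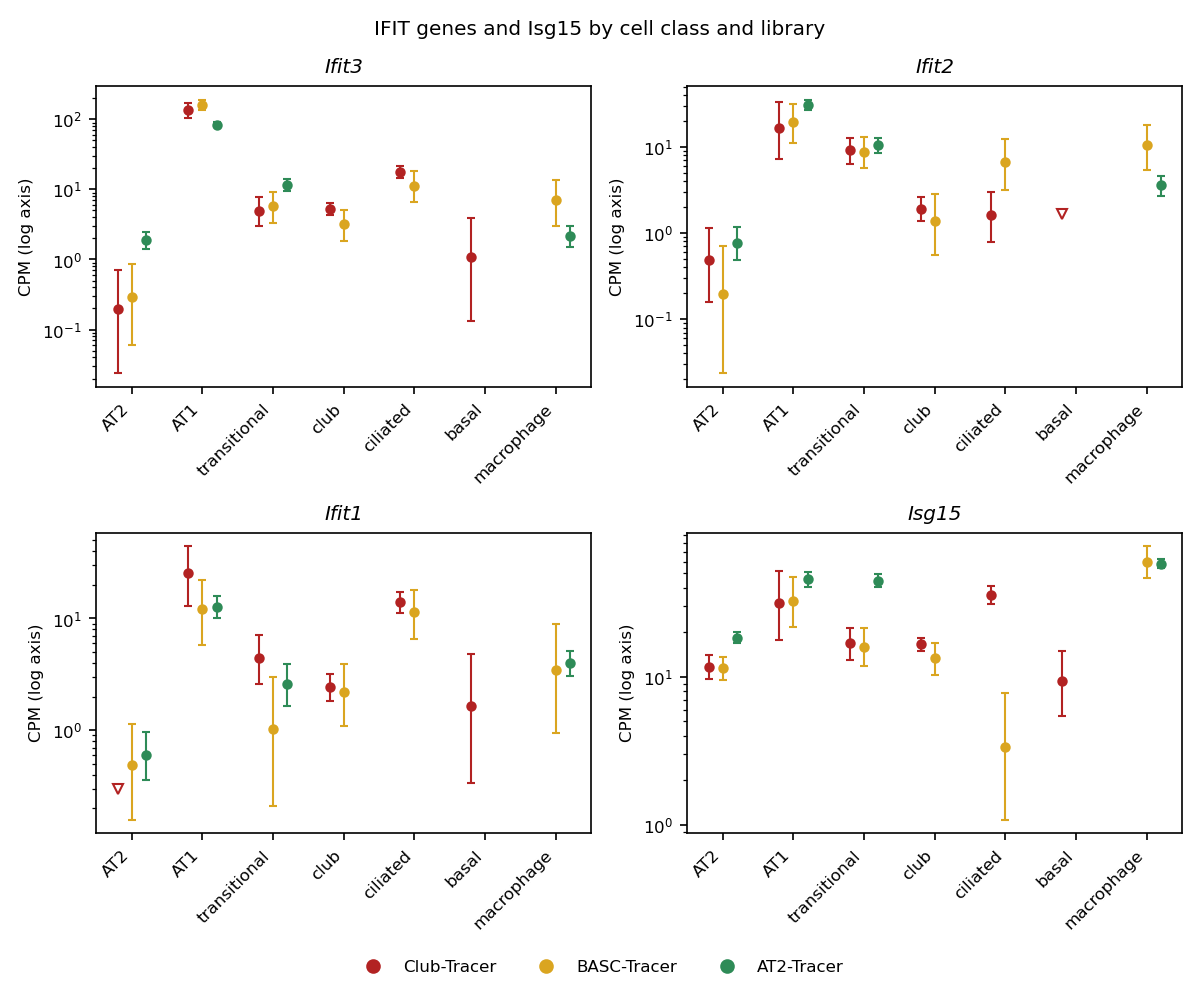
Levels of Ifit3, Ifit2, Ifit1 and Isg15 in CPM (log axis, each panel with its own range) by cell class; points are libraries, bars 95% Poisson intervals, and open triangles mark the limit that a count of 0 allows. Ifit3 in AT1 cells stands above 80 CPM in all 3 libraries and under 20 CPM in every other class shown.

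Members were called apart between a pair of class sums when log2((CPM + 1)/(CPM + 1)) was at least 1 in size, with at least 10 CPM and 30 UMIs on the higher side. The added 1 understates differences of low genes. The 30 UMIs are harder to reach in a class with few UMIs, so members higher in such a class more often go without a call. Shares of all genes are given for this rule only. Counts below with no minimum, relative to a median or without a cell have no such share beside them. By this rule 11 of the 23 members past the minimum were higher in AT1 than in AT2 cells of the AT2-Tracer library and none was lower, where 19.3% of all genes past the minimum were apart, 13.6% higher and 5.73% lower. After Ifit3, Ifit2 and Ifit1 the highest was Oasl2, an oligoadenylate synthetase-like gene, at 14.4 against 1.69 CPM, a ratio of 8.53 (5.97 to 12.3). Ifi47, a GTPase of the interferon gamma group, stood at 12.8 against 3.40 CPM, and Xaf1, a pro-apoptotic target, at 29.1 against 8.56 CPM. Bst2, which tethers budding viruses to the cell surface, stood at 109 against 42.1 CPM, Parp14, a mono-ADP-ribosyltransferase, at 36.7 against 14.4 CPM, and Isg15, a ubiquitin-like modifier, at 45.5 against 18.4 CPM. Ifih1, the RNA sensor MDA5, stood at 43.0 against 18.4 CPM and Ifi35 at 54.6 against 23.9 CPM. Ifitm3 was the member closest to even, at 20.0 against 20.2 CPM, where here and below the members past the minimum are compared. All genes past the minimum had a median log2 ratio of 0.34 there. Relative to that median 7 members remained apart, all higher, and Isg15, Ifi35, Parp14 and Ifih1 did not.

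In the BASC-Tracer library 5 of 10 members past the minimum were higher in AT1 cells and none was lower, beside 25.0% of all genes (14.1% higher, 10.9% lower). Next to Ifit3 these were Ifih1 at 60.5 against 17.6 CPM, Tap1, which carries peptides for class I presentation, at 36.3 against 10.6 CPM, Bst2 at 82.3 against 30.1 CPM and Ifi35 at 44.8 against 19.2 CPM. Leaving out the AT1 and the AT2 cell with most type I type UMIs left 3 members apart. Past the minimum Lgals3bp was closest to even at 25.4 against 28.7 CPM. With no minimum 17 members were higher and 1 lower. Ifitm1 was among the higher on 1 UMI against 0, and the lower was Ifi27l2a, on 1 UMI in AT1 cells. In the Club-Tracer library, with 57 AT1 cells, 6 members passed the minimum and Ifit3 alone was apart, beside 27.0% of all genes (12.9% higher, 14.1% lower). Of these 6, Trim25, Lgals3bp and Irgm1 passed through their UMIs in AT2 cells. With no minimum 15 members were higher and 2 lower, the lower being Igtp at 0 UMIs and Ifi27l2a at 1 UMI in AT1 cells. Among the higher was Rtp4 at 25.2 against 2.86 CPM, a ratio of 8.83 (4.10 to 17.8) from 12 UMIs. Xaf1 stood at 27.3 against 5.42 CPM, a ratio of 5.04 (2.53 to 9.35) from 13 UMIs. Rtp4 and Xaf1 were under the minimum there, so counts of calls are not compared between the 3 libraries. Trim25 was closest to even, at 18.9 against 20.9 CPM. Leaving out for each gene the cell with most of its UMIs gave 3 members apart in that library, 1 higher and 2 lower. The 14 macrophage markers summed to 29.4, 61.7 and 154 CPM in AT1 cells of the 3 libraries, with 10, 4 and 0 of them at 0. They summed to 29907 CPM in AT2-Tracer macrophages. Whether macrophage RNA adds to the levels in AT1 cells was not tested.

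**Figure D3:**
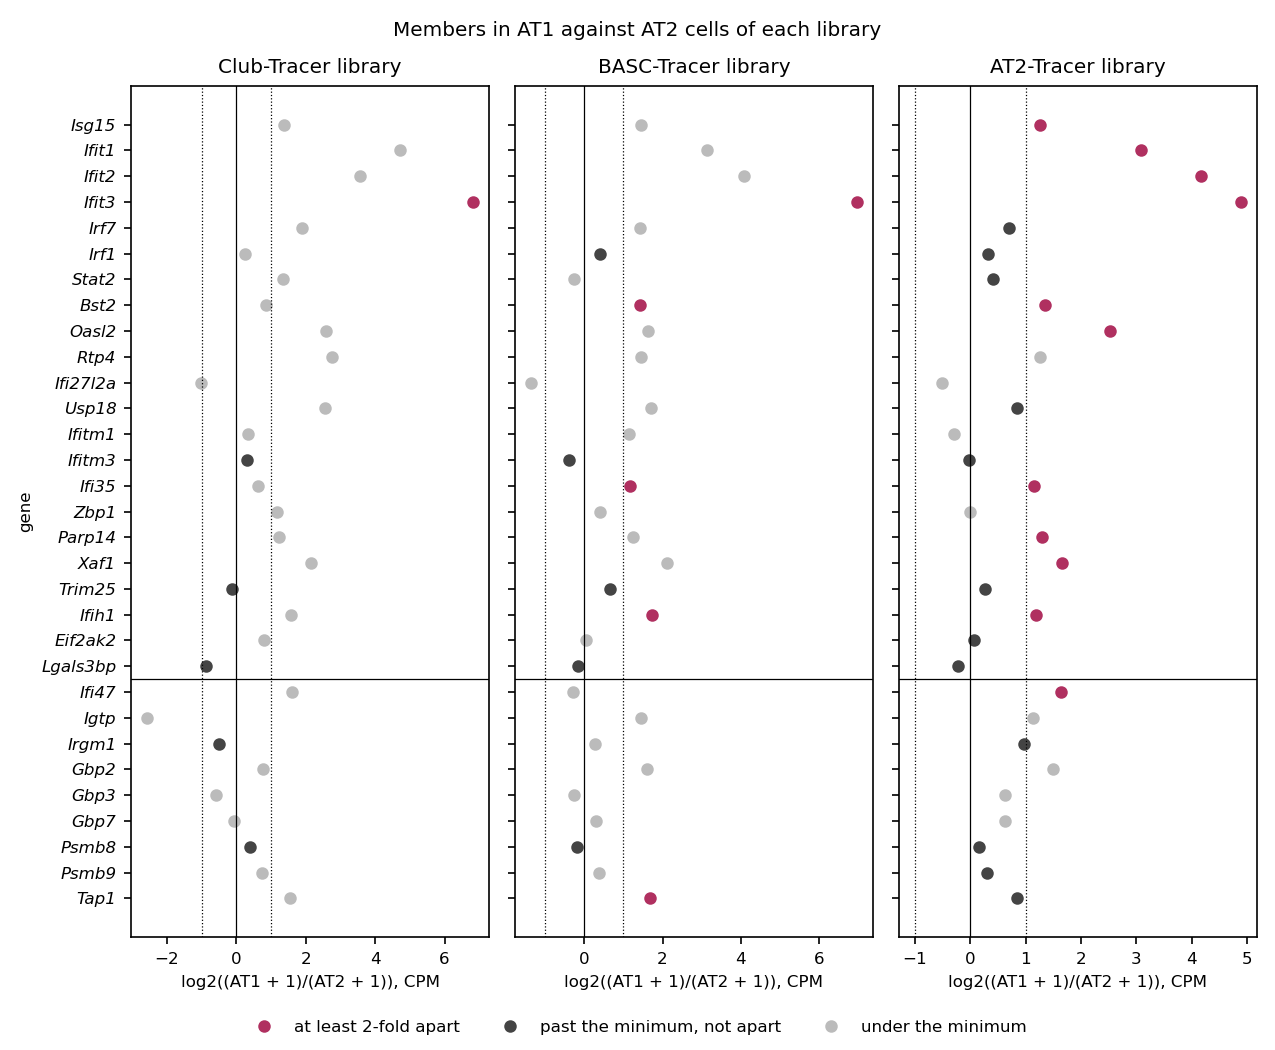
Log2 ratio of AT1 to AT2 cells for each member in each library, on the log2((CPM + 1)/(CPM + 1)) scale; dotted lines mark 2-fold. Ifit3 is the point farthest right in each panel, and few members other than it pass the minimum in the Club-Tracer library.

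Whether the IFIT genes were found in the same cells was examined at 5000 UMIs per cell. Of 464 AT1 cells of the AT2-Tracer library, 138 held an Ifit3 UMI. Among these, 10.9% (6.21 to 17.3) also held Ifit1 and 18.1% (12.1 to 25.6) Isg15, against 3.37% (1.70 to 5.96) and 12.9% (9.45 to 17.0) of the AT1 cells without Ifit3. Ifit3 was rare in airway cells, and there the shares differed more. Of 789 club cells of the Club-Tracer library 17 held Ifit3, and of these 29.4% (10.3 to 56.0) held Ifit1 and 41.2% (18.4 to 67.1) Isg15, against 1.30% and 3.11% of the club cells without Ifit3. Of 389 ciliated cells of that library 11 held Ifit3, and of these 36.4% (10.9 to 69.2) held Ifit1 and 54.5% (23.4 to 83.3) Isg15, against 1.85% and 7.41% without. Cells of a library are not replicates, so these shares are descriptions.

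**Figure D4:**
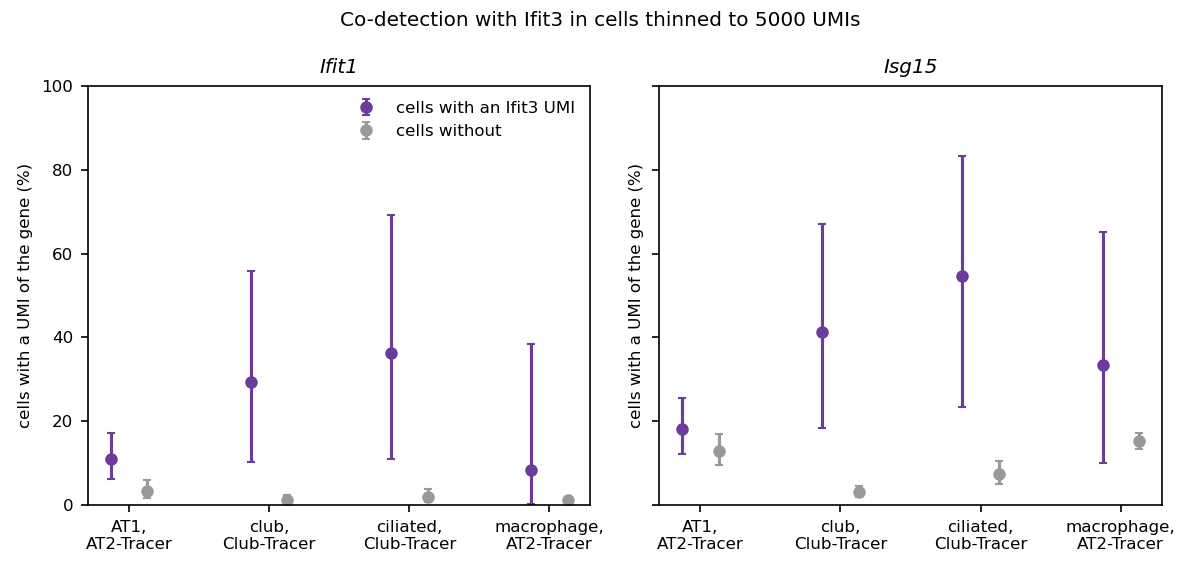
Share of cells with a UMI of Ifit1 or Isg15 among cells with and without an Ifit3 UMI, each cell thinned to 5000 UMIs, with exact 95% binomial intervals. In AT1 cells the Isg15 shares lie at 18.1% and 12.9% with overlapping intervals, while in Club-Tracer club cells they lie at 41.2% and 3.11%.

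A small number of cells carried many type I type genes at once. For Isg15, Ifit1, Ifit2, Ifit3, Irf7, Oasl2, Rtp4, Usp18, Zbp1 and Xaf1, a set of 10 chosen after levels were seen for their low counts in most cells, at least 5 were detected at 5000 UMIs in 20 of 2051 cells of the Club-Tracer classes, 6 of 807 of the BASC-Tracer classes and 20 of 3793 of the AT2-Tracer classes. By class this was 10 of 389 Club-Tracer ciliated cells, 7 of 789 club cells, 7 of 464 AT2-Tracer AT1 cells and 7 of 1360 AT2-Tracer macrophages, against 1 of 1493 AT2-Tracer AT2 cells and 0 of 405 Club-Tracer AT2 cells. At 3000 UMIs per cell the counts were lower and the order of classes differed, with 3 of 438 ciliated cells, 4 of 839 club cells, 2 of 582 AT1 cells and 4 of 512 AT2-Tracer transitional cells, so no order of classes is read from them. Some sums rest on such a cell. A single Club-Tracer cell with both AT2 and club markers, of 20876 UMIs, held 59 Isg15, 29 Ifit3 and 26 Irf7 UMIs, and 54.6% of all UMIs of the 10 genes in the 159 such cells. An AT2-Tracer transitional cell of 7405 UMIs held 72 Isg15, 38 Ifit3 and 38 Irf7 UMIs.

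Transitional cells stood above AT2 cells for several members. Ifitm3, a membrane protein that blocks virus entry, was higher in all 3 libraries by a similar ratio, 3.47 (3.21 to 3.76), 3.48 (3.04 to 3.98) and 3.51 (3.13 to 3.93). The levels were 373 against 108 CPM in the Club-Tracer, 151 against 43.3 CPM in the BASC-Tracer and 70.8 against 20.2 CPM in the AT2-Tracer library. Bst2 was higher as well, at 77.6 against 29.6 CPM, 62.9 against 30.1 CPM and 112 against 42.1 CPM. In the Club-Tracer library 6 of 19 members past the minimum were higher and none lower, beside 17.4% of all genes (13.2% higher, 4.2% lower), with Irf7, the interferon regulatory factor that amplifies the response, at 24.7 against 8.98 CPM, Rtp4 at 11 against 2.86 CPM, Xaf1 at 15 against 5.42 CPM and Ifitm1 at 10.3 against 1.48 CPM. In the BASC-Tracer library 5 of 19 were higher, beside 18.7% of all genes (14.0% higher, 4.67% lower), with Tap1 at 34.4 against 10.6 CPM and Gbp2, a guanylate-binding GTPase, at 18.4 against 2.54 CPM. A single cell gave 25 of the 54 Gbp2 UMIs there, and Gbp2 no longer passed the rule without the cell with most of its UMIs. All 32 UMIs of Ifi27l2a in BASC-Tracer transitional cells, at 10.9 against 4.68 CPM, came from 1 cell. Without the cell with most UMIs of each gene its log2 ratio turned from 1.06 to -1.43. In the AT2-Tracer library 10 of 21 were higher and none lower, beside 20.9% of all genes (14.9% higher, 6.02% lower). Ifit2 at 10.4 against 0.775 CPM, Ifit3 at 11.6 against 1.89 CPM and Gbp2 at 12.8 against 2.12 CPM led, followed by Rtp4, Isg15, Xaf1, Irf7 and Tap1. Ifit3 and Irf7 no longer passed the rule without the cell with most of their UMIs. In that order of libraries Irgm1, Eif2ak2 and Psmb8 were closest to even. All genes past the minimum had medians of 0.40, 0.42 and 0.43 on the log2 scale. Relative to these, 3 members remained higher in the Club-Tracer library, 3 higher and 1 lower in the BASC-Tracer library and 5 higher in the AT2-Tracer library, and Bst2 was apart in none of them.

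Lineages were then compared within a class, first in AT2 cells. Of 16 members past the minimum, 2 were higher in Club-Tracer than in AT2-Tracer AT2 cells and none lower, beside 5.84% of all genes (2.53% higher, 3.3% lower). Ifitm3 stood at 108 CPM (101 to 114) against 20.2 CPM (18.6 to 21.8), a ratio of 5.33 (4.82 to 5.90). Ifi47 stood at 11.1 against 3.40 CPM, a ratio of 3.27 (2.48 to 4.32). Without the cell with most of its UMIs on each side Ifi47 no longer passed the rule. With no minimum 2 were higher and 2 lower. The lower ones were Usp18 at 2.37 against 9.84 CPM, 4.16 times lower (2.74 to 6.6), and Ifit3 at 0.197 against 1.89 CPM, 9.57 times lower (2.53 to 81.0) from 2 against 56 UMIs. Irf1, a transcription factor induced by both kinds of interferon, was closest to even at 44.2 against 40.7 CPM. Between BASC-Tracer and AT2-Tracer AT2 cells only Ifitm3 was apart of 14 past the minimum, at 43.3 against 20.2 CPM, beside 2.44% of all genes (1.55% higher, 0.887% lower). That ratio of 2.15 (1.90 to 2.43) lies near the cut, and no member was apart with a stricter or a looser gate, with a pseudocount of 5 CPM, or among AT2 cells low in Lyz1. Parp14 was closest to even at 14.3 against 14.4 CPM.

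Ifitm3 took the order Club-Tracer, BASC-Tracer, AT2-Tracer in each alveolar class, with AT1 cells at 133, 32.7 and 20.0 CPM and transitional cells at 373, 151 and 70.8 CPM. The BASC-Tracer AT1 value rests on 27 UMIs, 11 of them in 1 cell. The direction was not limited to alveolar epithelium. Macrophages stood at 414 CPM (BASC-Tracer) against 92.5 CPM (AT2-Tracer), a ratio of 4.48 (4.03 to 4.97). Ciliated cells stood at 858 CPM (Club-Tracer) against 605 CPM (BASC-Tracer), and club cells at 199 against 153 CPM, both less than 2-fold apart. The whole libraries took the same order at 365, 150 and 60.7 CPM, and so did the summed club cell markers in AT2 cells, at 19132, 7972 and 552 CPM. Whether the Ifitm3 difference belongs to the lineage, to the whole library or to the club cell markers was not tested. Ifitm1, a paralogue next to Ifitm3, stood at 69.5 CPM in the whole Club-Tracer library and at 1.48 CPM in its AT2 cells. The share of AT2 cells with an Ifitm3 UMI at 3000 UMIs was 20.1% (16.4 to 24.3), 13.8% (10.3 to 17.9) and 4.84% (3.85 to 6.01), against 60.0%, 46.3% and 17.0% without thinning.

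In AT1 cells 1 of 17 members past the minimum was apart between BASC-Tracer and AT2-Tracer cells, beside 2.8% of all genes (0.647% higher, 2.15% lower). This was Ifi47, lower at 4.84 against 12.8 CPM, with 4 UMIs on the BASC-Tracer side and an interval of the ratio that reached 1.01. When the AT1 cell with most type I type UMIs was left out on each side, 4 members were lower. Psmb9 was closest to even at 26.6 against 27.6 CPM. Ifit3 was 161 against 84.2 CPM, a ratio of 1.91 (1.57 to 2.32). Its log2 ratio of 0.93 was not apart by the rule, and with median ratio scaling it was, at 1.02.

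In transitional cells 3 of 23 members were apart between BASC-Tracer and AT2-Tracer cells, beside 4.08% of all genes (2.63% higher, 1.44% lower). Isg15 was lower at 16 against 44.5 CPM, Usp18, the protease that removes ISG15 and dampens type I signalling, was lower at 5.10 against 12.1 CPM, and Ifitm3 was higher. Of the 392 Isg15 UMIs in AT2-Tracer transitional cells 72 came from the cell described above. Between Club-Tracer and AT2-Tracer transitional cells 7 of 23 were apart, beside 9.91% of all genes (5.15% higher, 4.75% lower). Ifitm3, Ifitm1 and Lgals3bp, a secreted galectin-3 ligand, were higher, at 373, 10.3 and 37.6 CPM against 70.8, 0.113 and 17.1 CPM. Isg15, Usp18, Ifit3 and Gbp2 were lower, at 16.8, 2.10, 5.00 and 4.74 CPM against 44.5, 12.1, 11.6 and 12.8 CPM. Of the 39 Ifitm1 UMIs on the Club-Tracer side 19 came from 1 cell, and without the cell with most UMIs of each gene Ifitm1 and Ifit3 no longer passed the rule. Eif2ak2 at 28.9 against 29.4 CPM and Rtp4 at 11 against 11.1 CPM were closest to even in these 2 comparisons.

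In the airway, ciliated cells carried a set of type I type genes at high levels. Ifitm3 stood at 858 CPM (835 to 882) in Club-Tracer and 605 CPM (566 to 645) in BASC-Tracer ciliated cells, Lgals3bp at 610 CPM (591 to 630) and 527 CPM (491 to 565), and Ifitm1 at 396 CPM (381 to 412) and 229 CPM (206 to 255). Club cells of the same libraries stood at 199 and 153 CPM for Ifitm3, 22.7 and 23.0 CPM for Lgals3bp and 18.5 and 8.53 CPM for Ifitm1. Ifi35 stood at 155 and 116 against 14.5 and 12.5 CPM, Usp18 at 68.6 and 56.6 against 2.15 and 1.98 CPM, and Rtp4, a Golgi chaperone, at 54.0 and 32.6 against 8.26 and 4.76 CPM. Both libraries therefore had each of these 6 genes higher in ciliated cells. The ratios for Usp18 were 31.9 (23.4 to 44.5) and 28.5 (14.8 to 61.6), and those for Lgals3bp 26.9 (24.4 to 29.6) and 22.9 (18.8 to 28.1). At 3000 UMIs, Lgals3bp was found in 72.1% of 438 Club-Tracer ciliated cells and 5.96% of 839 club cells, and Usp18 in 15.3% and 0.596%. Ifit3 was found in 1.37% of the ciliated cells.

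By the rule 15 of 24 members past the minimum were higher in Club-Tracer ciliated than club cells and none lower, and in the BASC-Tracer library 8 of 15 were higher and 1 lower. By log2 ratio Oasl2, at 22.0 against 3.82 CPM, followed Lgals3bp, Usp18, Ifitm1, Ifi35 and Rtp4 in the Club-Tracer library, ahead of Ifit1 and Ifitm3, and Irf7 at 48.8 against 15.1 CPM, Trim25, Ifit3 at 17.7 against 5.30 CPM, Xaf1, Ifi47 and Isg15 at 35.6 against 16.5 CPM had the lowest log2 ratios of the 15. In the BASC-Tracer library Irf7 stood at 33.3 against 11.3 CPM and Ifi47 at 25.3 against 6.15 CPM, and the lower member was Isg15, at 3.33 against 13.3 CPM from 5 UMIs in ciliated cells. Of all genes past the minimum, 58.7% were apart in the Club-Tracer library (55.3% higher, 3.46% lower) and 51.8% in the BASC-Tracer library (46.5% higher, 5.3% lower), with median log2 ratios of 1.11 and 0.92, so most genes had a higher CPM in ciliated cells. Relative to those medians 7 members were higher and 3 lower in the Club-Tracer library, and 6 higher and 3 lower in the BASC-Tracer library. Lgals3bp, Usp18, Ifitm1, Ifi35 and Rtp4 stayed higher in both, with scaled log2 ratios of 3.58, 3.36, 3.24, 2.22 and 1.46 in the Club-Tracer library. Ifitm3 stayed higher in the BASC-Tracer library and was just under the cut in the Club-Tracer library. Bst2 was closest to even in the Club-Tracer library at 27.8 against 25.9 CPM, and Irf1 in the BASC-Tracer library at 56.6 against 56.9 CPM. Ciliated cells of the BASC-Tracer and Club-Tracer libraries differed in 1 of 21 members, beside 1.03% of all genes (0.448% higher, 0.578% lower). Isg15 was lower at 3.33 CPM, from 5 UMIs, against 35.6 CPM. Trim25 was closest to even there at 36.0 CPM in both.

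**Figure D5:**
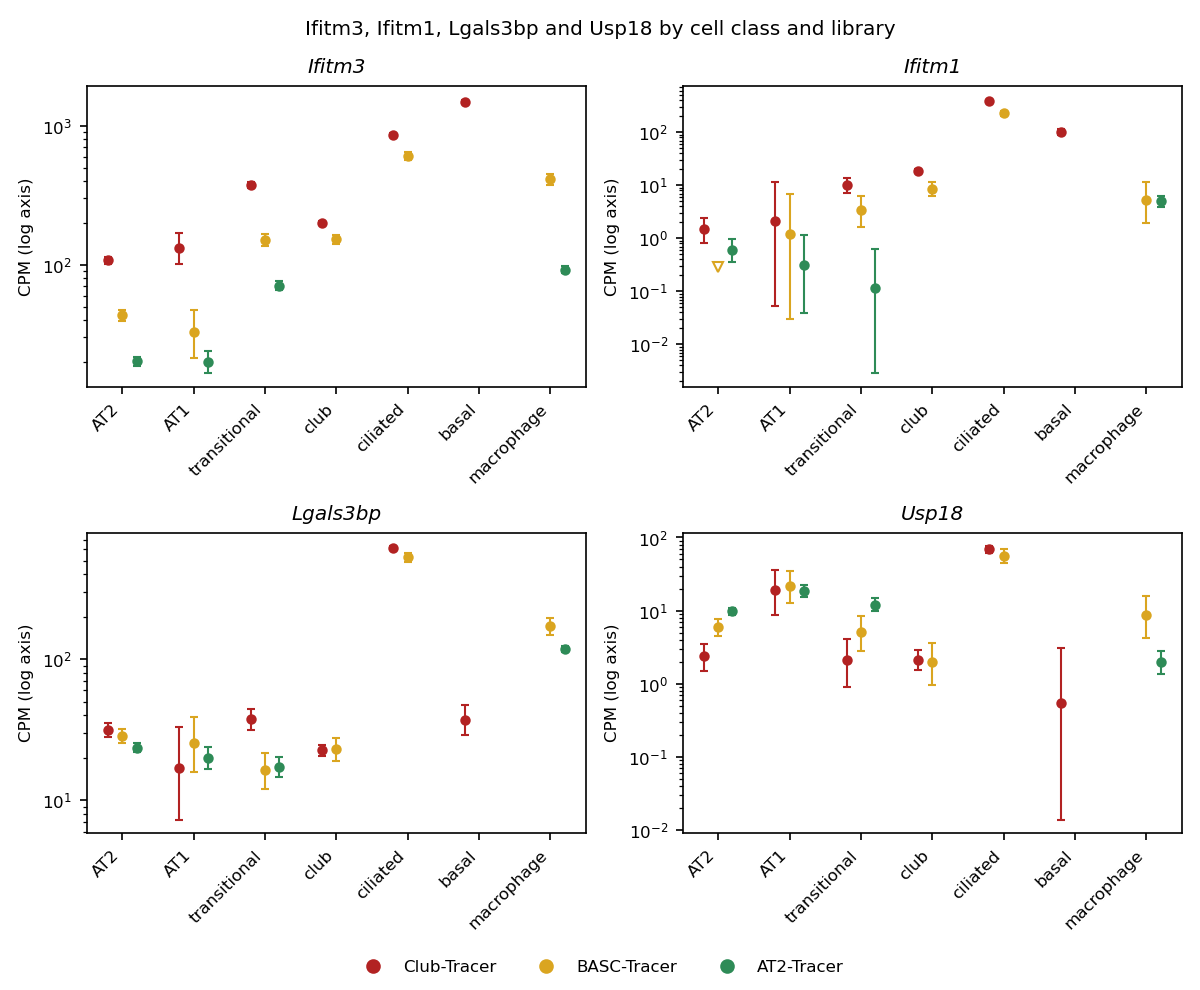
Levels of Ifitm3, Ifitm1, Lgals3bp and Usp18 in CPM (log axis, each panel with its own range) by cell class, with 95% Poisson intervals, 1 point per library, and an open triangle for the limit that a count of 0 allows. Ciliated cells stand above AT2, AT1, transitional and club cells for all 4 genes, Ifitm3 is highest in basal cells, and Ifitm3 in AT2 cells runs from 108 to 43.3 to 20.2 CPM over the libraries.

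Basal cells of the Club-Tracer library, the stem cells of the larger airways, had Ifitm3 at 1484 CPM (1429 to 1541), the highest level of any member in a class of at least 50 cells. It was found in 87.2% of 141 basal cells at 3000 UMIs. Ifitm1 stood at 102 CPM and Irf1 at 104 CPM. Against club cells 7 of 17 members past the minimum were higher and none lower, beside 51.0% of all genes (46.6% higher, 4.35% lower), with Trim25, an E3 ligase for the RNA sensor RIG-I, Irgm1, Parp14 and Tap1 as the others. All genes had a median log2 ratio of 0.94, and relative to it 2 members, Ifitm3 and Ifitm1, were higher and 5 lower. Ifih1 was closest to even. Club cells of the BASC-Tracer and Club-Tracer libraries differed in 1 of 15 members, beside 0.746% of all genes (0.527% higher, 0.22% lower), with Ifitm1 lower at 8.53 against 18.5 CPM. Bst2 was closest to even there at 25.6 against 25.9 CPM. A gate on upper airway secretory cells held 36 Club-Tracer cells, with Ifitm3 at 1367 CPM and Ifitm1 at 279 CPM.

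Macrophages of the AT2-Tracer library had 10 of 19 members past the minimum higher than AT2 cells and none lower, beside 40.8% of all genes (18.6% higher, 22.2% lower), whose median log2 ratio was -0.18. Ifi27l2a, a small membrane protein of the ISG12 family, stood at 104 against 2.26 CPM, a ratio of 45.9 (35.9 to 59.4), and was found in 17.3% of 1589 macrophages and 0.683% of 1611 AT2 cells at 3000 UMIs. Gbp7 stood at 28.1 against 1.82 CPM, a ratio of 15.5 (11.6 to 20.9), and Gbp2 at 12.5 against 2.12 CPM. Trim25 stood at 162 against 27.3 CPM, Lgals3bp at 118 against 23.5 CPM, Ifitm3 at 92.5 against 20.2 CPM, and Isg15 at 58.1 against 18.4 CPM. Zbp1, a sensor of Z-form nucleic acid, stood at 10.4 against 3.37 CPM, Bst2 at 114 against 42.1 CPM and Ifih1 at 41.1 against 18.4 CPM. Irf7 was closest to even at 10.5 CPM in both. Ifit3 was near its AT2 level, at 2.17 against 1.89 CPM. Macrophages of the BASC-Tracer library had Ifitm3 at 414 against 92.5 CPM, Parp14 at 77.4 against 26.3 CPM and Gbp2 at 45.2 against 12.5 CPM in the AT2-Tracer library, 3 of 16 members, beside 15.3% of all genes (7.57% higher, 7.77% lower). A single cell gave 24 of their 52 Gbp2 UMIs, and without the cell with most UMIs of each gene Gbp2 no longer passed the rule. Isg15 was closest to even at 60.0 against 58.1 CPM.

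Of the other interferon gamma type genes, Psmb8 and Psmb9, subunits of the immunoproteasome, were at 74.3, 76.0 and 105 CPM and at 16, 20.3 and 22.2 CPM in AT2 cells, and at 98.9, 66.5 and 117 CPM and at 27.3, 26.6 and 27.6 CPM in AT1 cells. Igtp and Irgm1, GTPases that act on vacuoles of intracellular pathogens, were at 4.93, 3.81 and 3.34 CPM and at 12.2, 9.85 and 9.51 CPM in AT2 cells. In AT1 cells Igtp had 0 UMIs in the Club-Tracer library and stood at 12.1 and 8.47 CPM in the other 2, with ratios of AT1 to AT2 cells of 3.18 (1.42 to 6.49) and 2.54 (1.78 to 3.58), both under the minimum for a call. Irgm1 stood at 8.41, 12.1 and 19.5 CPM in AT1 cells, with a ratio of 2.05 (1.64 to 2.54) in the AT2-Tracer library, where its log2 ratio of 0.96 missed the cut. Gbp3 reached at most 2.30 CPM in the epithelial classes with at least 50 cells, apart from the cells with both AT2 and club markers of the BASC-Tracer library at 3.30 CPM, and at 13 and 8.12 CPM in macrophages. The highest levels of the proteasome genes were in small gates. The 37 AT2-Tracer dendritic cells had Psmb8 at 555 CPM (482 to 635), Psmb9 at 234 CPM (188 to 288) and Tap1 at 97.3 CPM. They also had Stat2, the type I signal transducer, at 76.2 CPM, against 3.25 to 25.2 CPM in the classes with at least 50 cells. The 22 Club-Tracer lymphocytes had Psmb8 at 332 CPM (211 to 499), Ifi27l2a at 318 CPM (199 to 482) and Gbp7 at 116 CPM. Eif2ak2, the RNA-activated kinase PKR, was the flattest type I type gene, between 15.4 and 42.1 CPM in the classes with at least 50 cells.

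Of the other pathway genes listed for comparison, 60 of 64 were matched in the features. Among ligands, Ifnb1 was found in macrophages, at 8.37 CPM (7.02 to 9.90) from 135 UMIs in 41 of 1766 AT2-Tracer cells and at 5.22 CPM from 6 UMIs in 3 of 107 BASC-Tracer cells. It was at 0 in AT2, AT1 and transitional cells of every library, which allows up to 0.101 CPM in AT2-Tracer AT2 cells. The limit is far higher in small classes. A single UMI equals 2.10 CPM in Club-Tracer and 1.21 CPM in BASC-Tracer AT1 cells. With the limit at 3 counts, a level under 3 times these values is not told from 0 there. Ifng, the ligand of the gamma response, was at 0 in the Club-Tracer and AT2-Tracer libraries. Its BASC-Tracer value is not given here, and a count of 0 is a limit and not absence. The receptors Ifnar1, Ifnar2, Ifngr1 and Ifngr2 were present in every class with at least 50 cells, between 6.02 and 264 CPM. Ifnlr1, the lambda receptor, stood at 16.8, 30.2 and 24.9 CPM in AT1 cells and at 5.23, 8.49 and 7.82 CPM in AT2 cells, and at 0.870 and 0.806 CPM in macrophages. Irf9 stood at 10.5, 9.68 and 15.2 CPM in AT1 and at 8.68, 11.3 and 10.6 CPM in AT2 cells. Of the 60 genes, 10 were higher and 2 lower in AT1 than in AT2 cells of the AT2-Tracer library, among 32 past the minimum, beside the 13.6% and 5.73% of all genes given above. Among those higher were Ifngr1, Ifngr2, Ifnlr1, Ddx58, Oas3, Herc6, Samd9l, Sp100 and Tapbp, and those lower were Socs3 and Ciita. Between Club-Tracer and AT2-Tracer AT2 cells 1 was higher, Iigp1 at 14.6 against 2.02 CPM, and 2 lower, Cd74 at 1783 against 4403 CPM and Ciita at 3.16 against 11.6 CPM, of 27 past the minimum, beside 2.53% and 3.3% of all genes. Macrophages had 16 higher and 2 lower than AT2 cells of the AT2-Tracer library, of 34 past the minimum, beside 18.6% and 22.2% of all genes, with Irf8 at 84.4 against 0.641 CPM and Ifngr1 at 175 against 32.6 CPM.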

How the data were processed

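Gene expression was measured in 3 single-cell 5′ RNA libraries, 1 per lineage. The deposited matrices hold raw UMI counts per gene and barcode, made by the authors with Cell Ranger 6.1.1 on mm10, per the file headers and the submitters' processing notes. The annotation release was not stated by these sources. Barcodes with at least 500 genes and at most 15% mitochondrial UMIs were kept, and cells were gated on UMIs of marker lists per 10000 UMIs. Counts were summed by library and class and divided by all UMIs of the sum (CPM). Intervals are exact Poisson, binomial or conditional binomial at 95% and cover counting error only. Both sides of a comparison needed 50 cells. A limit for a count of 0 is 3 counts. Of 18 comparisons, 6 were designed at the outset and 12 were added after the files were seen. The members, marker lists and pathway list were chosen with earlier results of these data known. Each member is named by its levels, and in each comparison those apart are named (all up to 12, otherwise the 6 highest and 6 lowest log2 ratios) with the member closest to even. Doublets were left in, and Scrublet scores (scanpy 1.11.5) were used for an alternative. Scripts used Python 3.11.15, numpy 2.4.6, scipy 1.17.1 and pandas 2.3.3. The rule for apart and the interval of a ratio were tested on simulated class sums of the 6 designed comparisons, with counting error only. Gates, thinning and co-detection were not tested in this way, and the simulated sums had no spread between cells. Alternatives covered gates, filters, scaling, the pseudocount, the minimum and single cells. The values of 1 gene of the pathway list are not reported here.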

Additional observations from a re-analysis of the deposited data

Results flagged for a closer look

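Isg15 took opposite directions between ciliated and club cells in 2 libraries. Its log2 ratio of ciliated to club cells was 1.06 in the Club-Tracer library and -1.72 in the BASC-Tracer library. The difference between the libraries was not tested, since each lineage has 1 library. The BASC-Tracer value rests on 5 Isg15 UMIs in 86 ciliated cells. Either direction turned under 1 alternative, to -0.044 in the Club-Tracer library with median ratio scaling and to 0.10 in the BASC-Tracer library with a looser gate, and under either of these the libraries no longer differ in direction.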

How the results depend on the processing

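Over all alternatives, 168 of 232 counts of members apart stayed within 1.5 times of the reported count and 64 moved, and 1262 of 1265 values of single genes kept their direction. The cause of these moves was not tested. No share of all genes is given beside the counts under alternatives. With no minimum, the counts in AT2, AT1, transitional and club cells between lineages (BASC-Tracer against AT2-Tracer, or against Club-Tracer for club cells) were 2, 2, 6 and 2, that for Club-Tracer against AT2-Tracer AT2 cells 4 (2 higher, 2 lower), and that for transitional cells of the same pair 11. Likewise 16 were apart for macrophages against AT2 cells, 17 (Club-Tracer) and 18 (BASC-Tracer) for AT1 against AT2 cells, 18 for BASC-Tracer ciliated against club cells, 11 for basal against club cells, 11 (Club-Tracer) and 10 (BASC-Tracer) for transitional against AT2 cells, 9 for macrophages and 3 for ciliated cells between lineages. With a minimum of 50 CPM the lineage counts were 1 (AT2, Club-Tracer), 0 (AT2, BASC-Tracer), 0 (AT1), 1 (transitional, both pairs), 0 (club) and 0 (ciliated), and the class counts 6 (macrophages), 3 (AT1, BASC-Tracer and AT2-Tracer), 6 and 5 (ciliated), 3 (basal) and 2 (transitional, each library). With a pseudocount of 5 CPM they were 1 and 0 (AT2), 0 (AT1), 0 (club), 4 (transitional, Club-Tracer against AT2-Tracer), 4 (basal), and 3 and 6 (transitional against AT2, BASC-Tracer and AT2-Tracer). A stricter gate gave 0 for BASC-Tracer AT2 and 2 for ciliated cells between lineages. A looser gate gave 0 for BASC-Tracer AT2, 3 for AT1, 0 for club and 3 for BASC-Tracer transitional against AT2 cells. Median ratio scaling gave 2 for AT1 between lineages, with Ifit3 added, 7 for AT2-Tracer AT1 against AT2, and 3 and 5 for Club-Tracer and AT2-Tracer transitional against AT2 cells. Equal weight for each cell gave 5 (AT1), 5 (transitional, BASC-Tracer) and 4 (club). CPM outside the 50 most abundant genes gave 2 for club cells and 2 for Club-Tracer AT1 against AT2, at most 10% mitochondrial UMIs gave 2 for ciliated cells, and Lyz1-high and Lyz1-low AT2 cells gave 1 (Club-Tracer) and 0 (BASC-Tracer). 2 alternatives were chosen after seeing the data. Without the cell with most UMIs of each gene the counts were 1 (AT2, Club-Tracer), 3 (AT1 between lineages), 3 (Club-Tracer AT1 against AT2) and 3 (BASC-Tracer transitional against AT2), and without the cell with most type I type UMIs 4 (AT1 between lineages), 2 and 3 (AT1 against AT2, Club-Tracer and BASC-Tracer). Directions turned for Isg15 in ciliated against club cells, at 0.10 with a looser gate (BASC-Tracer) and -0.044 with median ratio scaling (Club-Tracer), and for Ifi27l2a in BASC-Tracer transitional against AT2 cells, at -1.43 without the top cell of each gene. At 1500 UMIs per cell the share of AT1 cells with Ifit3 was 6.38%, 12.5% and 12.8% (Club-Tracer, then BASC-Tracer, then AT2-Tracer). With fewer than 50 cells left, the Lyz1-high setting for BASC-Tracer AT2 cells, the setting of 1000 genes for Club-Tracer AT1 cells and the stricter gate for 5 comparisons with AT1 or BASC-Tracer transitional cells were not run. No paired analysis was possible because each lineage has 1 library.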
